A study of Malus domestica with 18 samples.

Results

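The sorbitol-6-phosphate dehydrogenase genes of apple were taken as every gene of the deposited count table whose best Swiss-Prot match carried that enzyme's name, which gave 7 of 42841 genes. All 7 had the same best match, an NADP-dependent enzyme. The family was chosen by way of its member DVH24_021353, selected on its normalised counts on the cytokinin thidiazuron and on control medium at 48 hour, where earlier results of these data had placed it among the lower genes. Its values in that comparison are therefore given as a description, with no test. The name is that of the closest characterised protein, so it gives the family, and reads of close paralogs may have been shared between members.

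In apple and related members of the rose family, sorbitol is made in leaves beside sucrose and is carried in the phloem to growing tissues. Sorbitol-6-phosphate dehydrogenase, an aldo-keto reductase, takes the entry step: it reduces glucose-6-phosphate to sorbitol-6-phosphate with NADPH, and a phosphatase then releases sorbitol. In receiving tissues, sorbitol dehydrogenase oxidises sorbitol to fructose, and polyol transporters carry sorbitol across membranes.

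RNA was sequenced from in vitro shoots of apple, Malus domestica, cultivar Húsvéti rozmaring, labelled as axillary shoot tissue. Explants 20 mm long had been moved from cytokinin-free culture to 1 of 3 media: a control without cytokinin, one with 4.5 µM thidiazuron (TDZ, a synthetic phenylurea cytokinin) and one with 4.5 µM 6-benzylaminopurine riboside (BAR, the riboside of an adenine-type cytokinin). All 3 media, the control included, also held 0.49 µM indole butyric acid, an auxin, 0.58 µM gibberellic acid, and sucrose as a carbon source. Shoots were sampled at 48 hour and at 4 week, which makes 6 groups of 3 libraries. The names of 4 libraries end in a letter b that the labels do not explain. They are replicate 3 of the controls at 48 hour, of BAR at 48 hour and at 4 week, and of TDZ at 4 week. Apart from that letter, each repeats the name of replicate 1 of its group. All libraries came from 1 cultivar, and the labels call the replicates biological without saying whether they came from separate vessels or shoots, so p-values measure the spread between these samples, which may be partly technical. In whole shoots, fewer cells of a type and less RNA per cell cannot be told apart.

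The 18 libraries held 12546489 to 21279097 counts, and the 7 genes together took 0.0243% to 0.793% of a library. The library labelled TDZ, 4 week, replicate 3 stood apart from its group: its Spearman correlation across genes was 0.807 and 0.803 with replicates 1 and 2, which correlated at 0.974 with each other. The summed level of 12 type-A response regulators, early cytokinin response genes, was 403 and 476 CPM in replicates 1 and 2, 15.7 CPM in replicate 3 and 12.4 to 26.8 CPM in the 4 week controls. Member levels, fold changes and called counts that use this library are given with and without it. Within the 4 week controls, replicate 1 correlated at 0.927 and 0.931 with the other two, which correlated at 0.987. Of 34 leaf marker genes (chlorophyll a-b binding proteins and the Rubisco small chain) 31 had counts at 48 hour, and their sum fell from 38733 to 47797 CPM in the controls at 48 hour to 10050.5 to 25859 CPM in the controls at 4 week, with 23 of 31 tested genes lower by edgeR, where 21.0% of all genes tested were lower. At 4 week the sum was 11212 to 16934 CPM on BAR and 4877 to 8151 CPM on TDZ. Against the controls of 4 week, 16.8% of all genes tested were higher and 9.72% lower on TDZ (23.0% and 17.9% without replicate 3), and 17.2% and 12.7% on BAR. Of the 31 leaf markers 2 were higher and 10 lower on TDZ (3 and 8 without replicate 3), and 5 and 5 on BAR. Of 24 tested phloem markers 13 were higher and 4 lower on TDZ (also 13 and 4 without replicate 3), and 9 and 2 on BAR. Of 14 tested shoot meristem markers 10 were higher and 1 lower on TDZ (12 and 2 without replicate 3), and 2 and 2 on BAR. Over time in the controls 6 phloem markers were higher and 12 lower, and 2 meristem markers higher and 9 lower. Of all genes tested 15.7% and 21.0% were. The phloem sum at 4 week was 340 to 366 CPM in the controls, 323 to 363 on BAR and 372 to 623 on TDZ. The meristem sum was 628 to 707 CPM in the controls, 845 to 924 on BAR and 436 to 758 on TDZ. Replicate 3 held the lowest TDZ value of both sums. A sum over 8 root markers stayed at or below 2.38 CPM in every library. The part of these shifts in the levels below was not tested.

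Transcripts of the family came mainly from a pair of genes. FPKM is fragments per kilobase of coding length, scaled per library. The deposited values differed from plain scaling by total counts by a factor of its own for each library, from 0.781 to 1.17. Summed over the family, FPKM was 614 to 880 in the controls at 48 hour and 3758 to 4715 at 4 week. DVH24_002547 supplied 64.4% to 69.2% of that sum in the controls at 48 hour, and DVH24_021353 supplied 6.73% to 12.7%. In the 4 week controls the share of DVH24_021353 was 22.8%, 46.3% and 47.1% in replicates 1, 2 and 3. In replicates 2 and 3 it stood at 2183 and 2191 FPKM, close to DVH24_002547 at 2318 and 2278 FPKM. The pair together supplied 90.5% to 96.1% of the sum in these controls and 29.3% to 57.4% of it on TDZ at 48 hour.

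**Figure D1:**
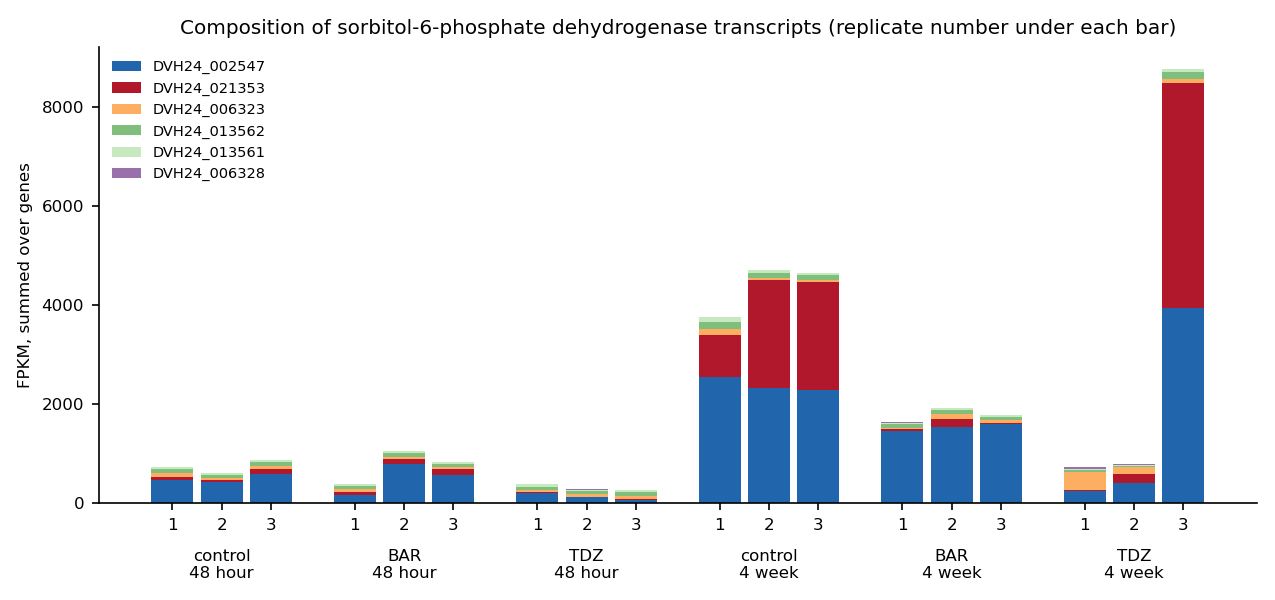
Stacked bars show the summed FPKM of the sorbitol-6-phosphate dehydrogenase genes in each of the 18 libraries, by medium, time and replicate, with 1 colour per gene (DVH24_006321, at or below 0.86 FPKM, is not drawn). The 4 week controls reached 3758 to 4715 FPKM, BAR at 4 week stayed between 1637 and 1934 FPKM with little of DVH24_021353, and the library labelled TDZ, 4 week, replicate 3 stood at 8767 FPKM.

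The genes differ in the length of their coding sequence and in where they lie. DVH24_002547 and DVH24_021353 have coding lengths of 933 and 957 bases, for 310 and 318 residues, and lie on separate sequences of the assembly. DVH24_006321, DVH24_006323 and DVH24_006328 share another sequence, with 17231 bases and 1 gene between the first and the second and 93910 bases and 4 genes between the second and the third. Their coding lengths are 495, 897 and 1341 bases. DVH24_013561 and DVH24_013562 lie 64 bases apart on the same strand with no gene between them, and their coding lengths, 384 and 744 bases, are both shorter than those of the pair of abundant genes. Total counts over the 18 libraries, which also depend on length, were 313802 for DVH24_002547, 162578 for DVH24_021353, 24427 for DVH24_006323, 18436 for DVH24_013562, 4689 for DVH24_013561, 4276 for DVH24_006328 and 10 for DVH24_006321. All but DVH24_006321 passed the filter on low counts. DVH24_006321 had 7 counts in control, 4 week, replicate 2 and 3 counts in TDZ, 4 week, replicate 1, had none in the other 16 libraries, and was not tested.

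The group means of DVH24_021353 ran from 7.24 to 1674 CPM, the lowest being that of the TDZ libraries of 48 hour on which it was selected. CPM is the count scaled by library total and composition. The controls at 48 hour stood at 60.4, 40.2 and 108 CPM, and the BAR libraries of that time at 58.5, 88.6 and 116. The 3 libraries on TDZ at 48 hour stood at 11.1, 2.02 and 8.61 CPM, on 129, 33 and 151 counts. All 3 lay below all controls and all BAR libraries, while controls and BAR overlapped. TDZ was thus 9.64-fold below control at 48 hour by the fitted change, a log2 value of -3.27 (SE 1.29) that describes the choice of this gene. BAR differed from the same 48 hour controls by a log2 value of 0.33 (SE 1.18, 95% interval -2.16 to 2.83). That value too is a description with no test, since these controls entered the choice of the gene.

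Against BAR at 48 hour, the TDZ libraries gave a log2 value of -3.60 (SE 1.31), a description with no test, since these TDZ libraries chose the gene. No gene at all passed at 48 hour in the fit of 18 libraries, in which 1439 of 26053 genes had an unadjusted p under 0.05 for TDZ against control, 693 for BAR against control and 1970 for TDZ against BAR. DESeq2 called 28 genes higher and 74 lower for TDZ against control, 2 and 2 for BAR against control and 31 and 118 for TDZ against BAR, and limma-voom called 0 in each. In the 48 hour libraries alone edgeR called 42 and 29, 4 and 3, and 7 and 6 in the same order, so the absence of calls depended on the fit.

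At 4 week the controls of DVH24_021353 had gone up to 839.6, 2082 and 2101 CPM. All 3 were above all 3 controls of 48 hour, by a log2 value of 4.59 (SE 1.36), or 24.1-fold. That value is a description with no test, since the gene was selected with these 48 hour controls. It was 4.45 and 4.31 when control replicate 1 or 2 of 48 hour was left out. On BAR the 4 week libraries stood at 36.0, 155 and 16.6 CPM, which overlapped BAR at 48 hour (log2 change -0.34, SE 1.18, edgeR adjusted p = 0.865). Every BAR library of 4 week lay below every control of that time, at a mean of 69.4 ± 75.2 CPM against 1674 ± 723 CPM (SD, n = 3).

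DVH24_021353 fell by 4.59 on the log2 scale on BAR against control at 4 week (SE 1.36, edgeR adjusted p = 0.0196), a 24.1-fold difference. Without the library labelled TDZ, 4 week, replicate 3, which this comparison does not use but which enters the shared estimate of the spread, the change was the same and the SE was 0.88 (adjusted p = 0.000733). The call rested on which BAR libraries were kept: without BAR replicate 1 or 3 of 4 week the adjusted p was 0.0758 and 0.0726, and in the 9 libraries of 4 week alone it was 0.0849. The BAR effect at 4 week minus the BAR effect at 48 hour was -4.93 (SE 1.75), and -4.93 (SE 1.13) without the unlike TDZ library. Both are descriptions with no test, since they share the 48 hour controls with the comparison that chose the gene.

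On TDZ the 4 week libraries of DVH24_021353 stood at 26.0, 174 and 4505 CPM. Replicates 1 and 2 lay below all 4 week controls, and replicate 3 lay above all of them and was the highest of the 18 libraries. With all 3 libraries, TDZ against control at 4 week gave a log2 value of -0.09 (SE 1.17, edgeR adjusted p = 0.962). Without replicate 3 it gave -4.07 (SE 1.02, adjusted p = 0.00453), a 16.8-fold difference on 2 TDZ libraries. The comparison with BAR moved as much, from 4.50 (adjusted p = 0.0509) with replicate 3 to 0.53 (95% interval -1.25 to 2.30, adjusted p = 0.768) without it. BAR against control and TDZ against control share the same control libraries.

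From 48 hour to 4 week on TDZ the log2 difference was 7.76 (SE 1.58) with replicate 3 and 3.80 (SE 0.90) without it. All 3 TDZ libraries of 4 week lay above all 3 of 48 hour. The TDZ effect at 4 week minus that at 48 hour was 3.17 (SE 1.71), and -0.79 (SE 1.16) without replicate 3. Both are descriptions with no test, since the 48 hour TDZ libraries are the low ones that chose the gene.

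By mean CPM the order of the groups for DVH24_021353 was control at 4 week, TDZ at 4 week, BAR at 48 hour, control at 48 hour, BAR at 4 week and TDZ at 48 hour. Only the last step separated neighbours without overlap. The place of TDZ at 4 week, 1568 CPM with replicate 3, became 99.9 CPM for the mean of replicates 1 and 2.

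**Figure D2:**
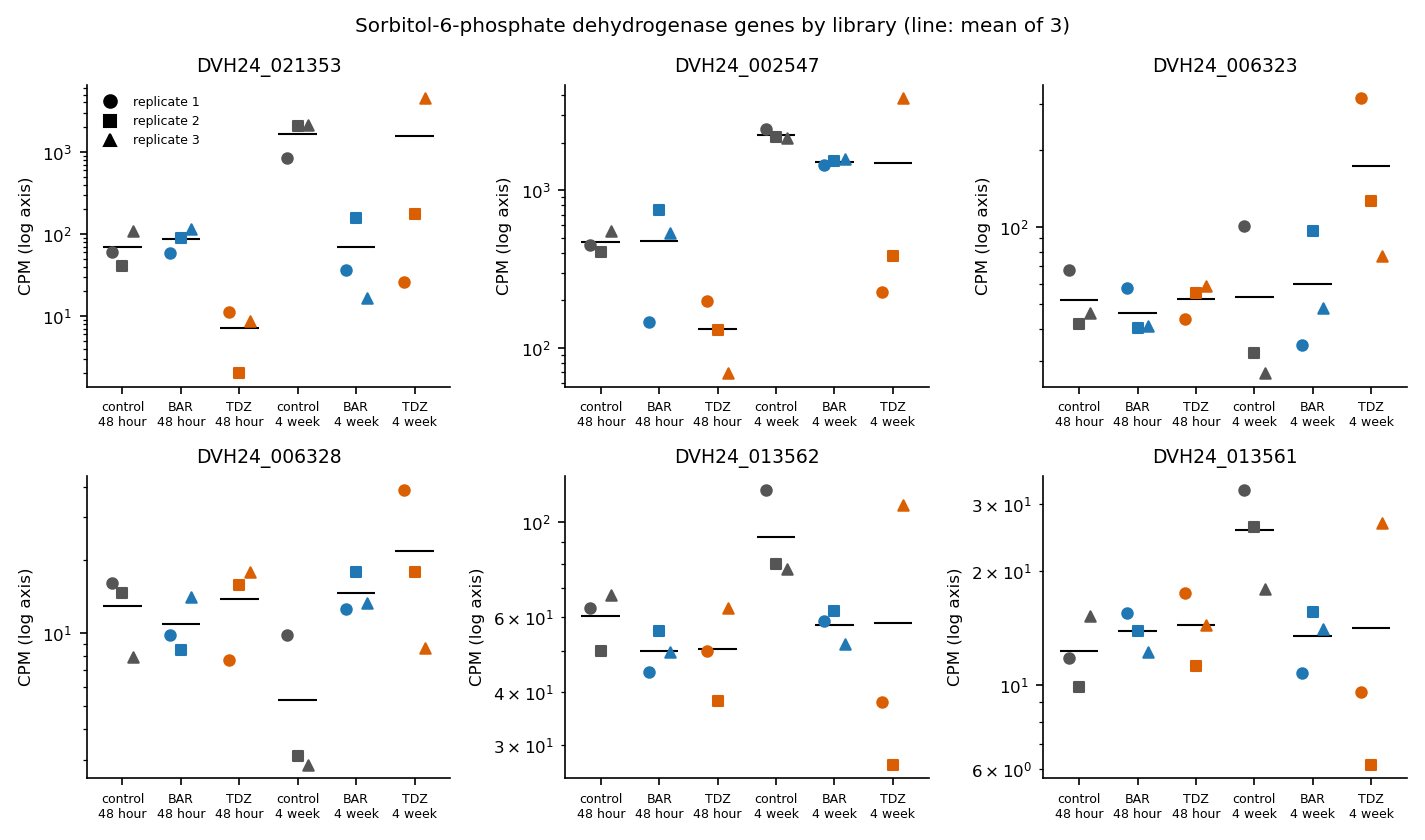
Each panel plots 1 gene, with CPM on a log axis against medium and time, 1 point per library (circle, square and triangle for replicates 1, 2 and 3) and a line at the mean of 3. DVH24_021353 and DVH24_002547 were highest in the 4 week controls and in the library labelled TDZ, 4 week, replicate 3, where they reached 4505 and 3816 CPM, while DVH24_006323 and DVH24_006328 were highest in TDZ, 4 week, replicate 1.

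DVH24_002547, the most abundant gene of the family, rose with time in the controls as DVH24_021353 did, but was not called on BAR. Its controls stood at 448, 403 and 551 CPM at 48 hour and at 2434, 2155 and 2129 CPM at 4 week, without overlap. It rose by 2.26 log2 units between the times (SE 0.80, edgeR adjusted p = 0.0378), or 4.79-fold. Leaving out any 1 of the 6 control libraries brought the adjusted p to between 0.058 and 0.109, at log2 values of 2.16 to 2.40.

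On BAR at 4 week DVH24_002547 stood at 1439, 1529 and 1581 CPM, below all controls of that time. The log2 difference was -0.56 (SE 0.77, 95% interval -2.20 to 1.07), and it did not pass (edgeR adjusted p = 0.613). From 48 hour to 4 week on BAR, from 146, 752 and 538 CPM upward, the change was 1.66 (SE 0.79, adjusted p = 0.145), and it passed without the unlike TDZ library (adjusted p = 0.0118).

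On TDZ the 48 hour libraries of DVH24_002547 stood at 199, 129 and 69.3 CPM. These lay below the 3 controls of that time and overlapped BAR. The log2 value against control was -1.82 (SE 0.79) with an unadjusted edgeR p of 0.0358 and an adjusted p of 0.858, so it did not pass. It also did not pass without the unlike library (adjusted p = 0.174).

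At 4 week the TDZ libraries of DVH24_002547 stood at 228, 381 and 3816 CPM. Replicates 1 and 2 lay below every BAR and control library of 4 week, and replicate 3 above every one. With all libraries TDZ differed from control by -0.60 (SE 0.77, edgeR adjusted p = 0.601) and from BAR by -0.04 (SE 0.77, adjusted p = 0.987). Without replicate 3 it fell by 2.88 against control (SE 0.56, adjusted p = 0.00069) and by 2.32 against BAR (SE 0.55, adjusted p = 0.00807). The rise from 48 hour to 4 week on TDZ was 3.48 (SE 0.85, adjusted p = 0.00999) with replicate 3, and 1.20 (SE 0.49, adjusted p = 0.104) without it. In the 2 groups alone, replicate 3 included, it was 3.52 and did not pass (adjusted p = 0.133).

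The balance between the pair of abundant genes can be compared within a library, per length. DVH24_021353 reached 0.336, 0.942 and 0.962 of the FPKM of DVH24_002547 in the 4 week controls and 0.0244, 0.0991 and 0.0102 of it on BAR at 4 week. On TDZ at 4 week the ratio was 0.111, 0.445 and 1.15, the last in replicate 3. All BAR ratios lay below all control and all TDZ ratios of that time. In the log2 ratio BAR lay 4.53 below control (-5.10 ± 1.65 against -0.57 ± 0.87, SD, n = 3), with a two-sided exact permutation p of 0.1, the smallest that 3 against 3 allow, and a Benjamini-Hochberg value of 0.2 over 8 comparisons. The 48 hour controls had ratios of 0.132, 0.0973 and 0.191, and their log2 ratios were 2.32 below those of the 4 week controls. That difference is a description with no test, since DVH24_021353 was selected with these 48 hour controls.

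**Figure D3:**
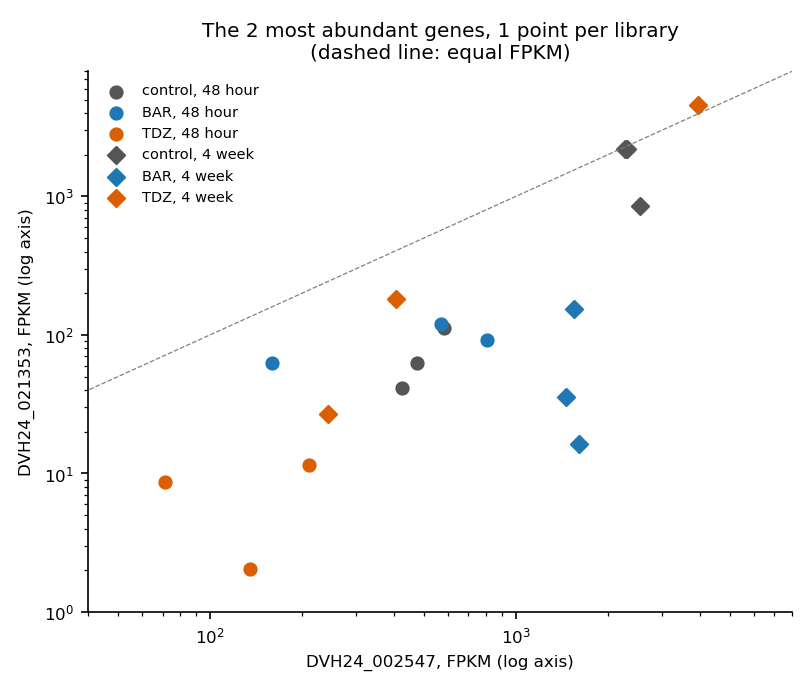
FPKM of DVH24_021353 is plotted against FPKM of DVH24_002547 on log axes, 1 point per library, with colour for medium, circles for 48 hour, diamonds for 4 week and a dashed line where both are equal. In the BAR libraries of 4 week DVH24_002547 stood at 10.1-fold to 97.7-fold the FPKM of DVH24_021353, on TDZ at 48 hour at 8.26-fold to 65.6-fold and in the 4 week controls at 1.04-fold to 2.97-fold, and the library labelled TDZ, 4 week, replicate 3 is the only one above it.

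In sum over the family, BAR at 4 week had 1637, 1934 and 1783 FPKM in replicates 1, 2 and 3, of which DVH24_002547 supplied 88.9%, 80.1% and 90.0%. TDZ at 4 week had 729 and 793 FPKM in replicates 1 and 2 and 8767 FPKM in replicate 3. All BAR libraries lay below all controls of 4 week and above all BAR libraries of 48 hour (397, 1057 and 839 FPKM), each with an exact permutation p of 0.1, the smallest possible, and a Benjamini-Hochberg value of 0.16 over 8 comparisons. On TDZ at 48 hour the sum was 388, 286 and 273 FPKM, lower than in any BAR library of that time. That sum includes the gene chosen for its low values there, which made up 0.717% to 3.17% of it, and is given with no test.

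DVH24_006323 and DVH24_006328, which share a sequence of the assembly, did not follow the abundant pair. DVH24_006323 stood at 100.5, 32.2 and 26.9 CPM in the 4 week controls and at 317, 126 and 76.6 CPM on TDZ at 4 week. The groups overlapped, since control replicate 1 lay above TDZ replicate 3. The gene rose by 1.70 log2 units on TDZ (SE 0.54, edgeR adjusted p = 0.0295), and by 2.06 (SE 0.51, adjusted p = 0.00436) without TDZ replicate 3. The call was lost without control replicate 2 or 3 or without TDZ replicate 1 of 4 week, with adjusted p between 0.116 and 0.229 and log2 values of 0.93 to 1.44. It was also lost in the libraries of 4 week alone (adjusted p = 0.124) and in the 2 groups alone (adjusted p = 0.204).

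In TDZ, 4 week, replicate 1, DVH24_006323 was the most abundant member, at 353 FPKM and 48.5% of the family's sum. It supplied 17.7% in replicate 2 and 0.938% in replicate 3, against 0.643% to 2.91% in the controls of 4 week. On BAR at 4 week it stood at 34.7, 96.4 and 48.4 CPM, within the range of the controls (log2 value 0.17, SE 0.53, 95% interval -0.94 to 1.28, edgeR adjusted p = 0.835). At 48 hour its 9 libraries spanned 40.1 to 67.6 CPM on all media, and the controls showed no detectable change with time (log2 value 0.04, SE 0.53, adjusted p = 0.963). On TDZ it rose from 48 hour to 4 week by 1.73 (SE 0.54, adjusted p = 0.0341), and by 2.08 (SE 0.51, adjusted p = 0.0115) without replicate 3, with every 4 week library above every 48 hour library.

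DVH24_006328 ranged from 2.13 to 28.9 FPKM over the libraries. It stood at 9.82, 3.09 and 2.86 CPM in the 4 week controls, at 12.5, 17.8 and 13.2 CPM on BAR and at 38.8, 17.9 and 8.63 CPM on TDZ. All BAR libraries lay above all controls, whereas TDZ replicate 3 lay within the range of the controls. It rose by 2.04 log2 units on TDZ (SE 0.55, edgeR adjusted p = 0.0146) and by 2.41 (SE 0.51, adjusted p = 0.00127) without replicate 3. Without control replicate 2 or 3 or TDZ replicate 1 of 4 week its adjusted p on TDZ was 0.0672 to 0.106, in the libraries of 4 week alone 0.0689 and in the 2 groups alone 0.169.

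On BAR the log2 value of DVH24_006328 was 1.46 (SE 0.55, edgeR adjusted p = 0.054), and it passed without the unlike TDZ library (adjusted p = 0.0223). Its controls stood at 16.0, 14.6 and 7.92 CPM at 48 hour, and their log2 change to 4 week was -1.28 (SE 0.54, adjusted p = 0.0762), and without the unlike library it was called lower (adjusted p = 0.0374). Across the 18 libraries its log2 CPM correlated with that of DVH24_006323 at a Pearson r of 0.72 and with that of DVH24_021353 at -0.60, a description over libraries that share media, times and depth. By Spearman rank correlation these were 0.67 and -0.37. DVH24_006323 itself correlated at a Pearson r of -0.08 with DVH24_021353. The libraries on which DVH24_021353 was selected are among the 18.

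DVH24_013562 and DVH24_013561, the adjacent pair, had like profiles. In the controls DVH24_013562 stood at 62.9, 50.0 and 67.6 CPM at 48 hour and at 119, 79.6 and 77.6 CPM at 4 week, without overlap. DVH24_013561 stood at 11.8, 9.90 and 15.2 CPM and then at 32.6, 26.1 and 17.9 CPM, also without overlap. The log2 changes were 0.61 (SE 0.38, edgeR adjusted p = 0.218) and 1.05 (SE 0.41, adjusted p = 0.0557), and both passed without the unlike TDZ library (adjusted p = 0.0367 and 0.00545).

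At 4 week every BAR library of both adjacent genes lay below every control. DVH24_013562 stood at 58.7, 61.9 and 51.9 CPM on BAR (log2 value -0.68, SE 0.38, edgeR adjusted p = 0.188) and DVH24_013561 at 10.7, 15.5 and 14.1 CPM (log2 value -0.92, SE 0.41, adjusted p = 0.0996). Without the unlike TDZ library both were called lower on BAR, with adjusted p of 0.0256 and 0.014. On TDZ, replicates 1 and 2 stood at 37.9 and 27.0 CPM for DVH24_013562 and at 9.59 and 6.18 CPM for DVH24_013561, below all BAR and control libraries of 4 week, and replicate 3 stood at 109.7 and 26.7 CPM, within the controls. With replicate 3 neither was called on TDZ (log2 values -0.67 and -0.86, adjusted p = 0.209 and 0.133). Without it both fell, by 1.51 (SE 0.26, adjusted p = 0.000276) and by 1.70 (SE 0.32, adjusted p = 0.000544). At 48 hour both genes overlapped on all media.

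Per length, DVH24_013562 held 1.47-fold to 2.83-fold the FPKM of DVH24_013561 in every library. Their log2 CPM correlated at a Pearson r of 0.88 over the 18 libraries, the highest of the 15 pairs of tested members. The r of the abundant pair, DVH24_002547 and DVH24_021353, was 0.78 over the same libraries, and 0.73 without the library labelled TDZ, 4 week, replicate 3. By Spearman rank correlation over the 18 libraries both pairs stood at 0.744.

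**Figure D4:**
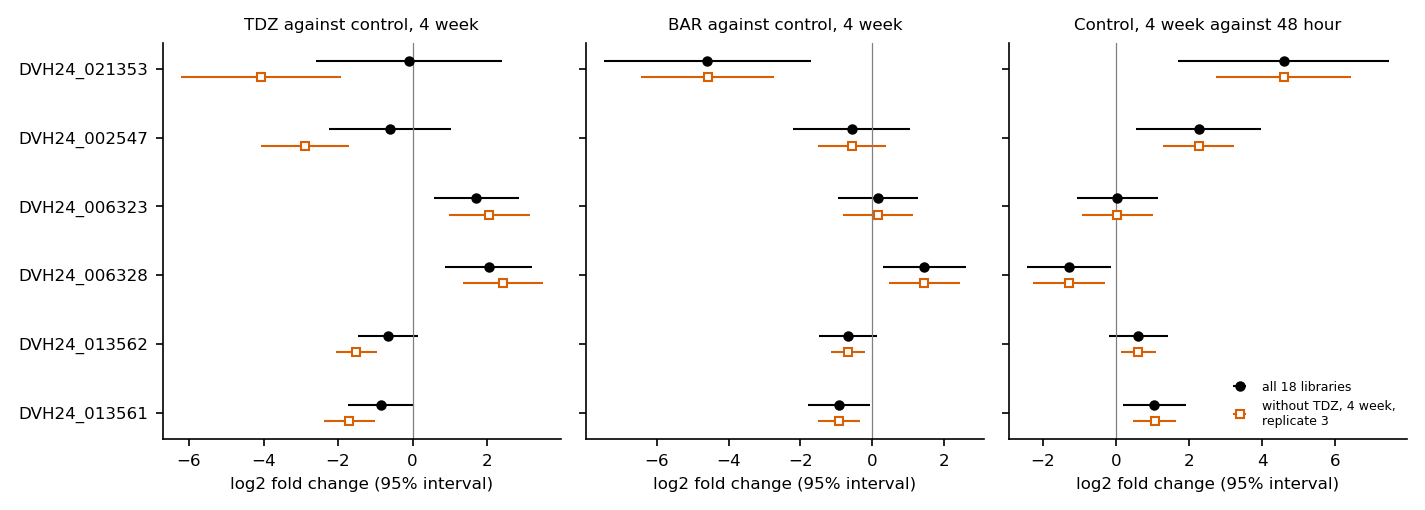
Points show log2 fold changes of the 6 tested genes with 95% intervals from the edgeR fit, for TDZ against control and BAR against control at 4 week and for the controls over time, with all 18 libraries (filled) and without the library labelled TDZ, 4 week, replicate 3 (open). Leaving it out moved DVH24_021353 on TDZ from -0.09 to -4.07 and DVH24_002547 from -0.60 to -2.88, while the BAR values hardly moved and their intervals narrowed.

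Set against all genes, the counts of members called were as follows. For TDZ against control at 4 week, 2 of the 6 tested members were higher and 0 lower by edgeR, where 16.8% of all genes tested were higher and 9.72% lower. Without the unlike library 2 were higher and 4 lower, against 23.0% and 17.9% of all genes, so all 6 tested members were called. For BAR against control at 4 week, 0 were higher and 1 was lower, where 17.2% and 12.7% of all genes were, which is near the background. Without the unlike TDZ library 1 was higher and 3 were lower, against 21.1% and 15.5%. For TDZ against BAR at 4 week 0 members were called, where 4.42% of all genes were higher and 3.98% lower, and 1 higher and 2 lower without the unlike library, against 8.47% and 6.97%.

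Over time in the controls 2 members were higher and 0 lower, where 15.7% of all genes were higher and 21.0% lower, and 4 higher and 1 lower without the unlike library, against 18.4% and 23.2%. DVH24_021353, selected with the 48 hour controls, is among the higher ones each time, so nothing is read from the counts over time in the controls. On TDZ 3 members were called over time, all higher, where 20.1% of all genes were called, and 2, both higher, without the unlike library, against 17.3%. DVH24_021353, whose low 48 hour TDZ libraries chose it, is among them each time, so nothing is read from these counts. On BAR 0 were called over time, where 10.1% of all genes were higher and 11.2% lower, and without the unlike library 1 was higher and 0 lower, against 13.4% and 15.6%. The change of the TDZ effect with time called 0 members, where it called 5.44% of all genes higher and 2.14% lower, and 2 higher and 2 lower without the unlike library, against 15.9% and 10.8%. The change of the BAR effect called 0, where it called 6.7% higher and 4.69% lower, and 0 higher and 1 lower without the unlike library, against 12.9% and 9.07%. The lower member is DVH24_021353, and this change also uses the 48 hour controls of its selection, so nothing is read from its count. At 48 hour 0 members and 0.0% of all genes were called in each of the 3 comparisons. In the fit without the unlike library these comparisons called 0 members and 0.0939%, 0.00375% and 0.0188% of all genes, in the order TDZ against control, BAR against control and TDZ against BAR.

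Among 18516 genes with a mean of at least 5 CPM, the 5 named ones most like DVH24_021353 over the 18 libraries had a Pearson r of log2 CPM of 0.936 to 0.951. The closest was DVH24_038566, matched to a UDP-glucose iridoid glucosyltransferase (0.951), with means of 9.30 CPM in the controls, 5.52 on BAR and 1.13 on TDZ at 48 hour and 136 CPM in the controls, 3.50 on BAR and 51.5 on TDZ at 4 week. Then came DVH24_040681 (0.942, matched to the dioxygenase mpo1), DVH24_016492 (0.940, a protein disulfide-isomerase), DVH24_037112 (0.937, an AVT1-type amino acid transporter) and DVH24_035134 (0.936, a NAC transcription factor). The 3 lowest were DVH24_006848, an O-fucosyltransferase (-0.92), DVH24_024437, a chloroplast glycerol-3-phosphate dehydrogenase (-0.92), and DVH24_025060, a probable arabinosyltransferase (-0.91). DVH24_002547 ranked 845 of 18516 in likeness to DVH24_021353. Without the unlike TDZ library 3 of the 5 closest genes stayed among the 5 closest, and by Spearman rank correlation 0 of them did. These values describe libraries that share medium, time and depth, and that include those on which DVH24_021353 was selected.

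The step after sorbitol synthesis showed other patterns. Of 8 sorbitol dehydrogenase genes 3 were tested, of which 1 was higher and 0 lower on TDZ at 4 week (2 and 0 without replicate 3), 0 were called on BAR, and 1 was higher and 1 lower over time in the controls. On TDZ 16.8% and 9.72% of all genes were called in these directions (23.0% and 17.9% without replicate 3), on BAR 17.2% and 12.7% and over time 15.7% and 21.0%. DVH24_022604 stood at 915 ± 149 CPM in the controls at 48 hour and rose to 1845 ± 83.7 CPM at 4 week (SD, n = 3, log2 value 1.01, SE 0.36, edgeR adjusted p = 0.0365). At 4 week it was not called on BAR (1694 ± 460 CPM, log2 value -0.12, SE 0.35, adjusted p = 0.819) or on TDZ (1386 ± 455 CPM, -0.41, SE 0.35, adjusted p = 0.415, and -0.70, adjusted p = 0.142, without replicate 3), where DVH24_021353 was 24.1-fold lower on BAR. DVH24_024671 fell over time in the controls, from 22.5 ± 10.8 to 2.11 ± 0.734 CPM (-3.42, SE 0.83, adjusted p = 0.00557), and was higher on TDZ than in the controls at 4 week (18.7 ± 15.6 CPM, 3.16, SE 0.83, adjusted p = 0.0122), with 1.4 CPM in the unlike replicate 3 and a log2 value of 3.71 (adjusted p = 0.000124) without it.

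Among 17 tested polyol transporters of 30, 3 were higher and 5 lower on TDZ at 4 week (4 and 8 without replicate 3), where 16.8% and 9.72% of all genes tested were (23.0% and 17.9% without it). On BAR 4 were higher and 7 lower, beside 17.2% and 12.7% of all genes, and over time in the controls 7 were higher and 3 lower, beside 15.7% and 21.0%. The median log2 values were -0.37 (-0.32 without replicate 3), -0.11 and 0.59, beside 0.14 (0.09 without replicate 3), 0.14 and -0.04 over all genes tested. DVH24_042308 went from 188 ± 35.4 CPM in the 48 hour controls to 571, 1335 and 1413 CPM in the 4 week controls (log2 value 2.56, SE 0.61, edgeR adjusted p = 0.00483). On BAR at 4 week it stood at 174, 204 and 142 CPM, below all controls (-2.67, SE 0.61, adjusted p = 0.0052). On TDZ at 4 week it stood at 75.1, 68.1 and 449 CPM, all below the controls, and was called with replicate 3 (-2.49, SE 0.61, adjusted p = 0.00877) and without it (-3.95, adjusted p = 6.1e-06). DVH24_021506, DVH24_042309 and DVH24_042310 were called in the same 3 directions, with log2 values of 2.39, 2.34 and 1.84 over time, -2.86, -2.41 and -2.97 on BAR and -2.19, -2.08 and -1.98 on TDZ (-3.48, -3.00 and -3.03 without replicate 3). DVH24_042307, also a polyol transporter by name, was called in none of these 3, and DVH24_031005 rose on BAR (2.05, SE 0.26, adjusted p = 0.000292).

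**Figure D5:**
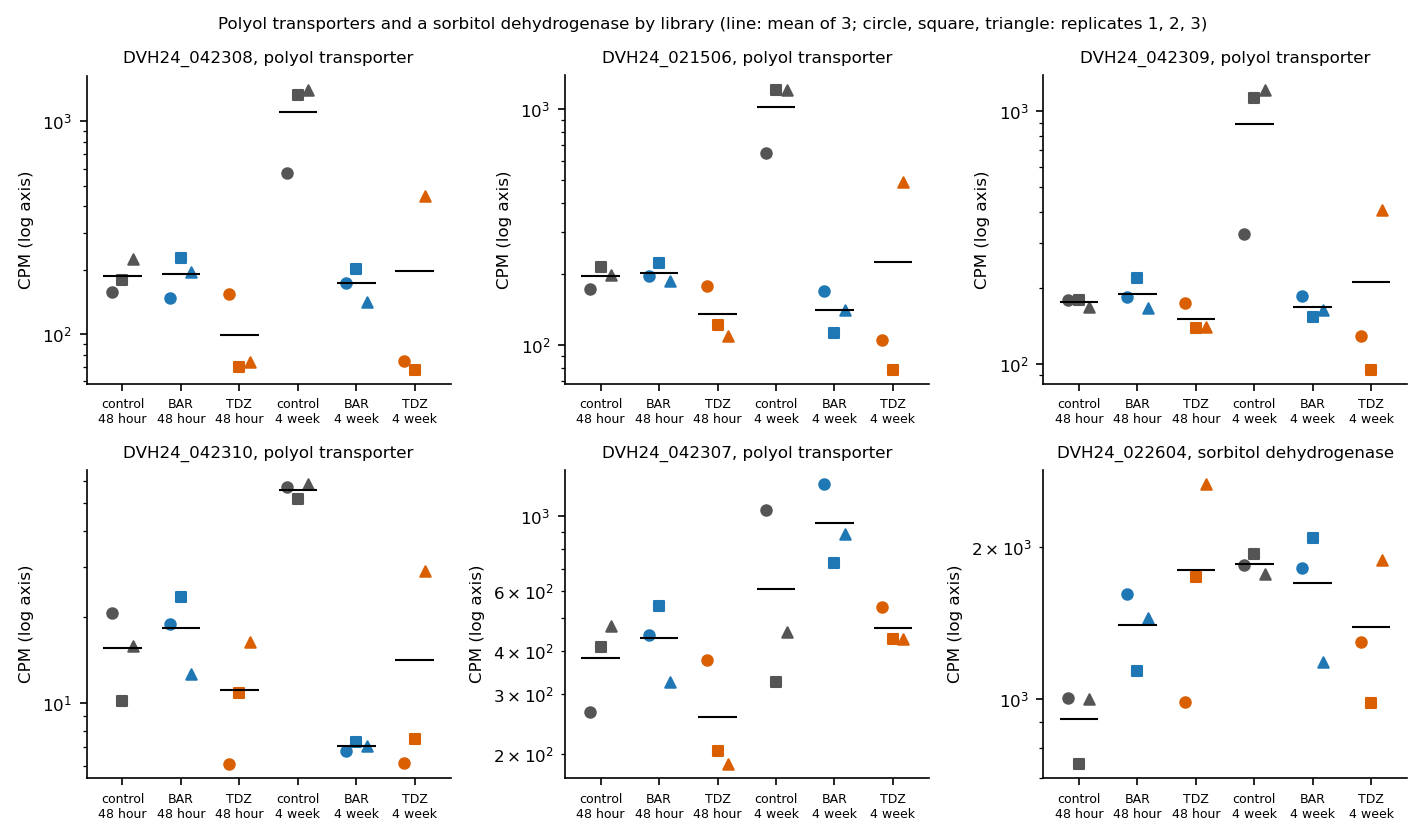
CPM on a log axis is plotted by medium and time for 5 polyol transporters and the sorbitol dehydrogenase DVH24_022604, 1 point per library with a line at the mean of 3. DVH24_042308, DVH24_021506, DVH24_042309 and DVH24_042310 were highest in the 4 week controls, and unlike the sorbitol-6-phosphate dehydrogenases they stayed below all those controls in the library labelled TDZ, 4 week, replicate 3, except that DVH24_042309 stood there at 407 CPM, above control replicate 1 at 327 CPM.

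Called counts of the other lists of sugar metabolism are read beside the same background: on TDZ at 4 week 16.8% of all genes tested were higher and 9.72% lower (23.0% and 17.9% without replicate 3), on BAR 17.2% and 12.7%, and over time in the controls 15.7% and 21.0%. Of 14 other aldo-keto reductases tested, 2 were higher and 0 lower on TDZ (also 2 and 0 without replicate 3), 1 higher and 2 lower on BAR, and 2 higher and 1 lower over time, with medians of 0.85 (0.84 without replicate 3), -0.39 and 0.15. Of 12 sucrose-phosphate synthases and phosphatases, which make sucrose, 1 and 3 (1 and 4), 2 and 5, and 4 and 0 were, in the same order, with medians of 0.02 (0.05), -0.41 and 0.25. Of 9 sucrose synthases, which cleave it, 4 and 0 (6 and 0), 2 and 1, and 1 and 1 were, with medians of 1.74 (2.29), 0.72 and -1.41. Of 16 invertases the counts were 2 and 6 (1 and 8), 1 and 3, and 5 and 1, with medians of -0.84 (-1.16), -0.38 and 0.57.

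Of 19 hexokinases and fructokinases, 1 was higher and 6 lower on TDZ (3 and 8 without replicate 3), 3 higher and 6 lower on BAR, and 5 higher and 2 lower over time, with medians of -0.59 (-0.84), 0.09 and 0.14. Of 17 SWEET and sucrose transporters the counts were 3 and 3 (3 and 5), 5 and 6, and 4 and 4, with medians of 0.05 (0.03), -0.19 and 0.30. Of 24 starch synthesis genes they were 0 and 8 (2 and 11), 4 and 11, and 10 and 1, with medians of -0.67 (-0.68), -0.64 and 0.61. Of 19 trehalose-6-phosphate genes they were 6 and 1 (9 and 1), 7 and 4, and 1 and 7, with medians of 0.60 (0.71), 0.71 and -0.37. Of 23 genes of the hexose phosphate pool, which holds the substrate of sorbitol-6-phosphate dehydrogenase, they were 0 and 6 (1 and 9), 5 and 7, and 6 and 4, with medians of -0.40 (-0.48), -0.10 and -0.03. There DVH24_007573, a cytoplasmic phosphoglucomutase, fell on BAR by 2.17 on the log2 scale (SE 0.27, edgeR adjusted p = 0.000254) and on TDZ by 0.96 (SE 0.26, adjusted p = 0.0142; 1.26 and 0.000954 without replicate 3), and DVH24_026637, a chloroplast fructose-1,6-bisphosphatase, rose on BAR (2.13, SE 0.42, adjusted p = 0.0024).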

How the data were processed

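Poly(A) RNA was sequenced in 18 libraries. Per the submitters' processing notes, base calling used CASAVA, alignment HISAT2 2.0.5 and counting featureCounts 1.5.0-p3. The labels describe both stranded and unstranded kits, and the build, annotation and counting strand were not given in the sources used here. The authors deposited counts per gene and FPKM, and 98.2% of gene lengths were multiples of 3, so FPKM is per coding length. Counts were fitted with edgeR 4.0.16 (R 4.3.3): TMM scaling, a filter at a minimum count of 10 and total of 15, 26053 genes tested, 1 quasi-likelihood fit of the 6 groups over 18 libraries, 11 comparisons, Benjamini-Hochberg adjusted p under 0.05 over all genes. CPM values are TMM-scaled. FPKM ratios and sums were compared by exact permutation tests. The procedure was tested on simulated data that held no unlike library, so that test does not cover a group such as TDZ at 4 week. Alternatives were DESeq2 1.42.0, limma-voom 3.58.1, RLE scaling, no filter, subsets of libraries, summing, a replicate block, deposited FPKM with a pseudocount of 0.1 and each library left out. The genes, the 11 pathway lists and the 5 marker lists were chosen by protein name with earlier results of these data known. Text names the 5 genes most like DVH24_021353 and the 3 least like it, and in each list up to 3 abundant genes and up to 2 called genes a comparison. Of 42841 genes, 64.1% carried a protein name. No gene sequence was used here.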

Additional observations from a re-analysis of the deposited data

How the results depend on the processing

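Of 90 values of DVH24_021353 under alternatives other than left-out libraries, 82 were kept, 2 passed the threshold no longer, 5 passed it newly and 1 reversed. The 2 include the change with time on TDZ, and the 5 include TDZ against BAR at 48 hour and the BAR effect over time. No test is read from any of these. Of 194 values for the other genes these numbers were 170, 5, 12 and 7. Kept meant the same direction and side of the threshold. Deposited FPKM and DVH24_021353 for TDZ against control at 48 hour had no adjusted p. Those values were kept if their direction held and they lay within the SD inside groups of the main value. For DVH24_021353 the fit of libraries of the same time only gave -3.62 for TDZ against BAR at 48 hour (no test is read from it) and -4.66 for BAR against control at 4 week (not called). TDZ against BAR at 4 week was called with DESeq2 (4.53), RLE scaling (4.53) and no filter (4.48). The change with time on TDZ was 7.81 in the 2 groups alone, and that on BAR was 0.046 with the names ending in b summed. The BAR effect over time was -5.02 with DESeq2 (no test is read from it). Reversed values of DVH24_002547 were -0.24 (limma-voom) and -0.013 (replicate block) for BAR against control at 48 hour, and 0.025 (same time only) and 0.035 (2 groups alone) for TDZ against BAR at 4 week. Those of DVH24_006323 over time in the controls were -0.18 (limma-voom), -0.0069 (no filter) and -0.10 (replicate block). Of 45 same-numbered pairs of libraries from different groups, 6 correlated over 0.1 in their deviations from the group means, with a range of -0.22 to 0.30. Differently numbered pairs were not compared, so whether the replicate numbers pair the samples was not tested. With the replicate block DVH24_021353 gave -4.34 for BAR against control at 4 week (adjusted p = 0.0289), and none of its calls changed. Leaving out each library in turn gave, for DVH24_021353, -4.07 to 0.48 for TDZ against control, -5.99 to -4.13 for BAR against control and 0.53 to 5.90 for TDZ against BAR at 4 week, 4.31 to 5.05 over time in the controls, -1.74 to 0.13 over time on BAR, -0.79 to 3.75 for the TDZ effect and -6.32 to -4.46 for the BAR effect over time. For DVH24_002547 it gave -0.45 to 0.46 for BAR against control at 48 hour, -2.32 to 0.47 for TDZ against BAR at 4 week and -1.06 to 1.73 for the TDZ effect over time, and for DVH24_006323 -0.36 to 1.02 for BAR against control at 4 week and -0.81 to 0.35 over time in the controls. DESeq2 moved the median of all genes for BAR against control at 4 week from 0.14 to 0.02. The cause of these changes was not tested. With 3 libraries a group, the spread between libraries limited precision more than depth for the abundant genes, and DVH24_006321, with 10 counts in all, could not be compared.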
